A study of Mus musculus with 20 samples.

Results

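The livers described here came from mice labelled TSP-1 null: 5 fed CDAHFD, a high fat diet of defined amino acids that lacks choline (HFKO), and 5 fed the control diet (NDKO). Genes were kept when their level exceeded 0.5 FPKM, the fragments assigned to a gene scaled to its length and to the size of the library, in at least 5 of these 10 libraries. By this rule 13342 of the 38924 genes in the table were members, among them 12003 protein coding genes, 437 pseudogenes, 188 antisense genes and 181 lincRNAs. Of the members, 10828 were above 0.5 FPKM in all 10 libraries. A further 796 reached the rule through all 5 HFKO libraries and no NDKO library and 26 the other way round, so that a difference between the diets was built into these 822. At the limit itself, 1012 genes exceeded it in exactly 5 libraries and 431, which were left out, in exactly 4.

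All mice were male. They were 5 weeks old at purchase, acclimated for 1 week and kept on their diet for 12 weeks. TSP-1, thrombospondin-1, is a secreted matrix glycoprotein known for activating latent TGF-β, and the knockout is carried by every cell of the body, in the control diet mice as in those on CDAHFD. Another 10 libraries from wild type (WT) C57BL/6J mice on the same diets (NDWT and HFWT, 5 each) shared the estimate of spread and served to test where the diet response differed by genotype. The tissue is the right medial lobe of the liver in the series description and the right lateral lobe in the methods of the study. The 10 libraries held 15641545 to 22721394 fragments, with a median of 20216988 in NDKO and 19057061 in HFKO, so that 3 fragments on a gene of 1 kb amount to 0.132 to 0.192 FPKM. Values below are means ± SD over 5 mice. A DEG has an FDR under 0.05 and an absolute log2FC above 0.58 (1.5 fold), HFKO over NDKO, on log2(FPKM + 0.1) in limma. Among the HFKO libraries HFKO5 stood farthest out, beyond the other 4 HFKO libraries for 7395 members, against 3541 for HFKO1, which was the nearest. For each member some library must be highest and another lowest, so every library has a large count, 6453 for HFKO4. The median absolute log2 difference from the other 4 libraries of the group was 0.188 for HFKO5 and 0.190 for NDKO5. Without HFKO5 there were 5308 higher and 541 lower DEGs.

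The targeted gene Thbs1 (ENSMUSG00000040152.8, on chromosome 2, 118111876 to 118127133, plus strand, build GRCm38), was looked at first and stood at 1.01, 1.5, 0.986, 1.9 and 1.13 FPKM in NDKO and 3.3, 3.32, 3.05, 3.14 and 4.4 FPKM in HFKO. Every HFKO library was above every NDKO library, and the gene was a DEG (log2FC 1.36, SE 0.24, FDR 3.66e-05). Between 112 and 207 fragments in NDKO and between 315 and 509 in HFKO were assigned to it, so the libraries labelled TSP-1 null were not free of Thbs1 signal. WT mice had 0.197 ± 0.103 FPKM on the control diet and 4.62 ± 1.22 FPKM on CDAHFD. On the control diet every library labelled TSP-1 null was above every WT library, whereas on CDAHFD the WT mean was above the HFKO mean of 3.44 ± 0.547 FPKM, with overlap between the libraries. A gene-level value holds no exon information, and intact and disrupted transcripts of the gene cannot be told apart with it. Whether the genotype labels are right could not be tested with these values, and genotypes are given as labelled throughout.

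A diet without choline deprives the liver of a precursor of phosphatidylcholine, the main phospholipid of lipoprotein coats, bile and membranes. Livers lacking it are known to retain triglyceride because VLDL is not exported, and rodents on such diets develop steatosis, then inflammation with macrophage recruitment, proliferation of duct-like cells and fibrosis. CDAHFD combines this with a high fat load and a low supply of methionine, the methyl donor of the other route to phosphatidylcholine. In RNA of whole liver, fewer cells of a type and less RNA per cell cannot be told apart, and the same holds for more of either.

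On the FPKM scale more genes were higher than lower on CDAHFD. DEGs numbered 5501 higher (41.2% of members) and 544 lower (4.08%). Of the higher DEGs 1114 exceeded a 4-fold change and 80 a 16-fold change, against 88 and 20 of the lower ones. All 5 HFKO libraries lay above all 5 NDKO libraries for 7205 members (54.0%) and below them for 710 (5.32%). The 7205 held 5104 of the higher DEGs and the 710 held 434 of the lower ones. Most DEGs of either direction were therefore without overlap. Leaving aside the 822 members above 0.5 FPKM in 1 diet group only, 4709 of 12520 were higher DEGs (37.6%) and 518 lower (4.14%).

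The excess of higher genes depended on the scale. FPKM is a share of a library, and the median member had a log2FC of 0.48. Median of ratios scaling moved that median by -0.52 and quantile normalization by -0.57. Under the first, 2771 members were higher DEGs (20.8%) and 1909 lower (14.3%), and under the second 2260 (16.9%) and 2070 (15.5%). Lists of genes are therefore given by their median log2FC less that of all members, called the relative median, and by their counts against the 41.2% and 4.08% above. Where the balance of a list turned under median of ratios scaling, its higher and lower DEGs follow under both scalings. Members above 0.5 FPKM in 1 diet group only had a fixed direction, and their number is given beside lists that hold 2 or more of them. Under quantile normalization the relative medians of 8 lists turned from negative to positive, those of phosphatidylcholine synthesis, lipogenesis, fatty acid uptake, bile acid transporters, plasma proteins, the ATF4 response, pericentral markers and ribosomal proteins.

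Changes ran with abundance. Among the 1777 members with a mean of at most 1 FPKM, 57.2% were higher DEGs and 2.98% lower, with a median log2FC of 0.89. Among the 56 members above 1000 FPKM the shares were 8.93% and 44.6%, with a median of -0.48. In between, the share of higher DEGs fell and that of lower DEGs rose at each step above 10 FPKM. The 822 members above 0.5 FPKM in 1 diet group only, 796 of them in HFKO alone, were not set aside here. Their direction was fixed by the rule, and their share of each range was not counted. The 50 most abundant genes of a library took 34% ± 0.966 of its fragments in NDKO and 27.8% ± 1.48 in HFKO, with all HFKO values below all NDKO values (exact permutation test, two-sided, p = 0.00794, which is its lower limit with 5 against 5). For the 10 most abundant genes the shares were 16.4% ± 0.594 and 15.9% ± 1.01 (exact p = 0.341). Alb, the albumin gene, held 5.7% ± 0.694 and 6.07% ± 0.86. The number of genes above 0.5 FPKM was 12119 ± 107 in NDKO libraries and 13908 ± 200.04 in HFKO libraries (exact p = 0.00794). This number depends on the FPKM scale, as the counts of DEGs do, and was not taken under another scaling.

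**Figure D1:**
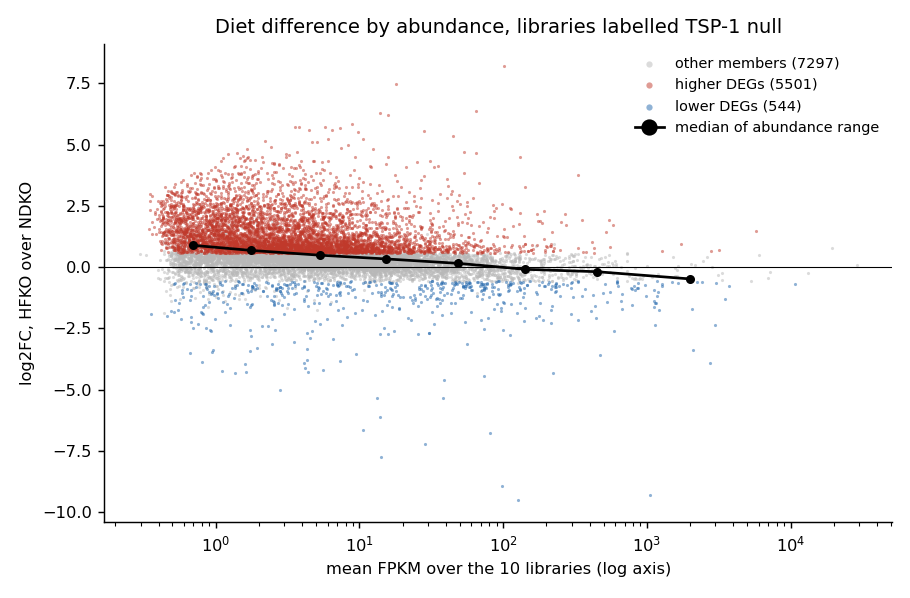
Diet log2FC (HFKO over NDKO, log2(FPKM + 0.1) scale) of the 13342 members against their mean FPKM over the 10 libraries (log axis); higher DEGs are red, lower DEGs blue, other members grey, and the black line joins the median log2FC of the 8 abundance ranges at their median level. The median falls from 0.89 at or below 1 FPKM to -0.48 above 1000 FPKM. The 822 members above 0.5 FPKM in 1 diet group only, whose direction was fixed, are included.

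The genes that rose most included markers of macrophages and enzymes of detoxification. Gpnmb (ENSMUSG00000029816.8, chromosome 6, 49036518 to 49058182, plus strand), a glycoprotein of lipid-laden macrophages, was at 0.995, 0.695, 0.282, 0.461 and 0.547 FPKM in NDKO and 182, 179, 250.4, 131 and 261 FPKM in HFKO. Mmp12 (chromosome 9, 7344381 to 7369499, plus strand), macrophage elastase, was at 0.114, 0.158, 0.081, 0.112 and 0.055 FPKM in NDKO and 35.6, 39.1, 40.2, 24 and 39.6 FPKM in HFKO. No NDKO value of either gene came within a factor of 100 of any HFKO value, and the log2FCs were 8.21 and 7.45. Gstm3 and Gsta1, which join glutathione to electrophiles, rose from 1.56 ± 0.946 to 129 ± 65.1 FPKM (log2FC 6.36) and from 0.331 ± 0.103 to 31.4 ± 7.46 FPKM (log2FC 6.20), respectively, although near-identical family members may share their reads. Ubd, a ubiquitin-like protein induced by cytokines, rose from 0.323 ± 0.269 to 27.6 ± 8.99 FPKM (log2FC 6.27). Adam8, a membrane protease of leukocytes, rose from 0.113 ± 0.0429 to 11.4 ± 3.55 FPKM (log2FC 5.72). Timp1, an inhibitor of matrix proteases, held at most 2 fragments in any NDKO library and at least 88 in any HFKO library, at least 40.8-fold higher on CDAHFD. Vsig8, with at most 3 fragments in NDKO, was at least 91.7-fold higher (both bounds set NDKO at 3 fragments). The cytochromes Cyp2a4 (5.84) and Cyp2b9 (5.67), expressed mainly in female liver, completed the 10 largest log2FCs among members without overlap and with a mean of at least 1 FPKM in HFKO. Some of these genes, Mmp12, Adam8 and Cyp2a4 among them, exceeded 0.5 FPKM in HFKO alone. The rule for members fixed their direction.

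Among the steepest falls were those of major urinary proteins (Mup), pheromone carriers of male liver that depend on pulsatile growth hormone. Each of the 17 tested of 22 listed was a lower DEG without overlap between the diets (relative median -4.78), of which 2 exceeded 0.5 FPKM in NDKO alone. Of all members 5.32% lay lower on CDAHFD without overlap. Mup7 was at 1650.4, 1622, 2151, 2292 and 2821 FPKM in NDKO and 6.23, 20.9, 1.51, 0.098 and 9.45 FPKM in HFKO. Mup3, the most abundant, was at 4204, 4929, 4977, 5407 and 6356 FPKM in NDKO and 419, 543, 302, 194 and 359 FPKM in HFKO, and Mup20, the male pheromone darcin, fell from 4882 ± 380.0 to 2077 ± 774 FPKM. Together the Mup genes took 1.35% ± 0.15 of fragments in NDKO and 0.237% ± 0.0886 in HFKO. These genes share long stretches of sequence, and reads may be split wrongly between them, while the direction was common to those tested. Moxd1, a monooxygenase-like protein, was at 44.1, 24.5, 7.54, 19.7 and 44.2 FPKM in NDKO and 0.057, 0, 0, 0 and 0 FPKM in HFKO, with at most 4 fragments in an HFKO library. It exceeded 0.5 FPKM in NDKO alone, so its direction was fixed. Hsd3b5, a steroid dehydrogenase of male liver, fell from 27.6 ± 13.5 to 0.345 ± 0.333 FPKM (log2FC -6.13).

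In the growth hormone and IGF list 5 of 19 were higher and 5 lower DEGs (relative median -0.53, 3 and 8 under median of ratios, 2 and 7 under quantile normalization). The receptor Ghr fell from 39.7 ± 6.09 to 23.7 ± 2.42 FPKM (log2FC -0.74), its target Igf1 fell from 60.1 ± 8.6 to 38.7 ± 2.69 FPKM (log2FC -0.62), and Igfals, which stabilizes IGF1 in blood, fell from 65.1 ± 7.86 to 32.2 ± 6.25 FPKM (log2FC -1.03). Socs2, another target, was at 4.84, 5.89, 7.13, 8.23 and 2.48 FPKM in NDKO and 2.45, 1.82, 2.32, 5.37 and 2.39 FPKM in HFKO and did not pass (log2FC -0.97, FDR 0.102). Igfbp7, a matrix-bound binding protein, rose from 96.8 ± 11.8 to 438 ± 73 FPKM (log2FC 2.17). The call of Igf1 was lost without NDKO4. Cyp4a12a and Cyp4a12b, male arachidonic acid hydroxylases with shared sequence, had log2FCs of -2.70 and -2.74, and the male steroid hydroxylase Cyp2d9 fell from 1013 ± 16.2 to 168 ± 37.5 FPKM (log2FC -2.62).

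**Figure D2:**
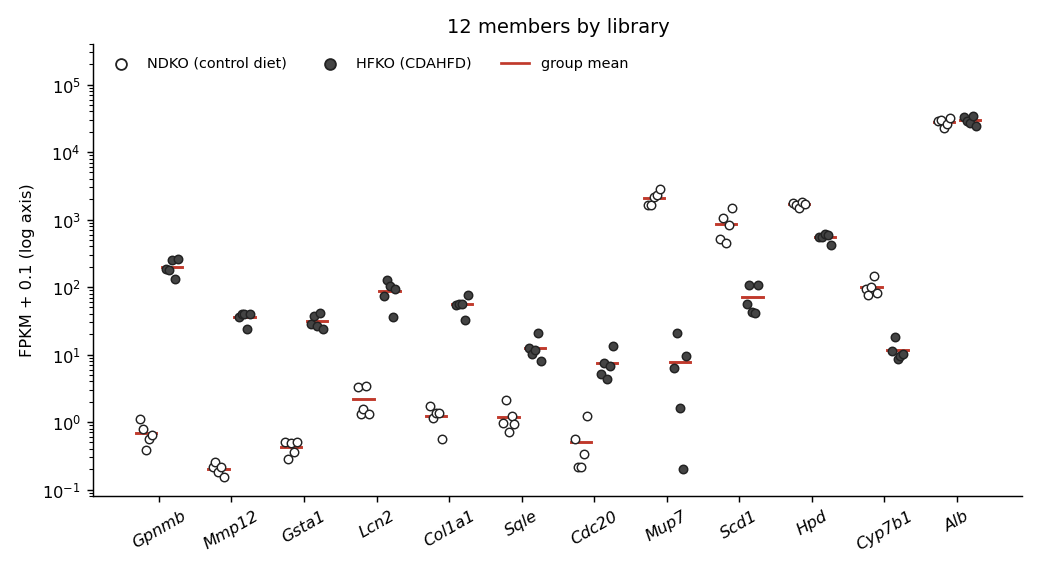
FPKM (log axis, 0.1 added) of 12 members in each of the 5 NDKO libraries (open circles) and 5 HFKO libraries (filled circles), with a bar at each group mean. Gpnmb, Mmp12, Gsta1, Lcn2, Col1a1, Sqle and Cdc20 stand higher in every HFKO library, Mup7, Scd1, Hpd and Cyp7b1 lower, and Alb overlaps.

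In phosphatidylcholine and phosphatidylethanolamine synthesis 5 of 19 tested genes were higher and 1 lower DEGs (relative median -0.18, 2 and 4 under median of ratios, 2 and 3 under quantile normalization). Pemt, which methylates phosphatidylethanolamine to phosphatidylcholine, was at 114, 125, 118, 107 and 114 FPKM in NDKO and 153, 127, 154, 189 and 120.2 FPKM in HFKO (log2FC 0.35, FDR 0.00592), under the fold limit. Choline kinase Chka rose from 5.28 ± 1.43 to 7.87 ± 1.49 FPKM (log2FC 0.59) and choline phosphotransferase Chpt1 fell from 19.6 ± 3.38 to 12.6 ± 0.903 FPKM (log2FC -0.62). Both were near the fold limit: the call of Chka was lost under either scaling, with a pseudocount of 1, and without HFKO1, HFKO3, NDKO4 or NDKO5, and that of Chpt1 without NDKO2. The rate-limiting Pcyt1a had a log2FC of 0.46. The choline transporters Slc44a2 and Slc44a3 rose, with log2FCs of 1.73 and 1.59.

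The methionine, betaine and folate list held 10 higher and 11 lower DEGs among 33 tested (5 and 16 under median of ratios, 5 and 11 under quantile normalization, relative median -0.51), and its abundant hepatocyte enzymes fell together. Mat1a, which makes S-adenosylmethionine in adult liver, was at 3627, 2855, 2865, 3464 and 2977 FPKM in NDKO and 874, 1092, 1068, 925 and 881 FPKM in HFKO (log2FC -1.70, SE 0.15, FDR 6.71e-09). Gnmt, which consumes surplus S-adenosylmethionine, fell from 1616 ± 233 to 621 ± 89.7 FPKM (log2FC -1.38), Ahcy, which clears S-adenosylhomocysteine, fell from 1183 ± 124 to 402 ± 39.8 FPKM (log2FC -1.56), and Bhmt, which remethylates homocysteine with betaine, fell from 1024 ± 259 to 326 ± 122 FPKM (log2FC -1.70). Cth, the last step to cysteine, fell from 333 ± 122 to 107 ± 21.5 FPKM (log2FC -1.58). No library of one diet overlapped the other in these 5 genes. Mat2a, the form of dividing and non-hepatic cells, rose from 26.8 ± 2.62 to 48 ± 1.01 FPKM (log2FC 0.84), a call lost under median of ratios. The serine and mitochondrial folate enzymes Psat1, Mthfd1l, Phgdh and Mthfd2 rose from low levels, with log2FCs of 3.06, 2.60, 2.49 and 2.11, and 4 members of the list reached 0.5 FPKM in HFKO alone.

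Lipoprotein genes gave 4 higher and 7 lower DEGs among 29 tested (relative median -0.74, 2 and 18 under median of ratios, 3 and 5 under quantile normalization). Apob, the structural protein of VLDL, was 462 ± 54.3 and 461 ± 42.6 FPKM (log2FC 0.0022), and Mttp, which loads it with lipid, fell from 85.2 ± 7.82 to 56 ± 1.9 FPKM (log2FC -0.60), a call lost without HFKO4 or NDKO2. Under median of ratios the log2FC of Apob was -0.53, short of a call. Apoa2 fell from 13257 ± 1199 to 8129.5 ± 987 FPKM (log2FC -0.71), Apoc3 fell from 1595 ± 149.7 to 944 ± 121 FPKM (log2FC -0.76) and Apoa5 fell from 1084 ± 211 to 558 ± 65.9 FPKM (log2FC -0.94). Under quantile normalization the calls of Apoc3 (log2FC -0.0034) and Apoa5 (-0.42) were lost. Lpl, the lipase that adult hepatocytes hardly make, was at 3.98, 3.67, 3.38, 3.89 and 3.39 FPKM in NDKO and 52.1, 56.9, 59.7, 26.2 and 65.8 FPKM in HFKO, and Gm6484 (Angptl8), an inhibitor of lipoprotein lipase, rose from 6.7 ± 2.67 to 22.1 ± 6.36 FPKM (log2FC 1.78).

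Of 18 lipid droplet and lipase genes 2 were higher and 6 lower (relative median -0.61). The coat protein Plin2 was 438 ± 114 and 358 ± 45.2 FPKM (log2FC -0.26) and Cidec 33 ± 17.4 and 33.3 ± 10.4 FPKM (log2FC 0.28). G0s2, an inhibitor of adipose triglyceride lipase, was at 188, 496, 622, 195 and 102 FPKM in NDKO and 42.2, 58.8, 72.9, 76.8 and 46.7 FPKM in HFKO, and every HFKO library was below every NDKO library. Plin5 fell from 69.9 ± 17 to 38.1 ± 6.95 FPKM (log2FC -0.85), whereas Plin3 rose from 18.8 ± 1.19 to 45.7 ± 1.8 FPKM (log2FC 1.28). The summed level of the list overlapped between the diets, at 1054 to 2160.5 FPKM in NDKO and 1058 to 1281 in HFKO.

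In the list of lipogenesis, desaturation and triglyceride synthesis 8 of 27 were higher and 6 lower DEGs (relative median -0.33, 6 and 13 under median of ratios, 5 and 11 under quantile normalization). Fatty acid synthase Fasn rose from 7.6 ± 2.38 to 22.8 ± 5.52 FPKM (log2FC 1.59), Acly rose from 17.8 ± 2.89 to 30.4 ± 2.11 FPKM (log2FC 0.78) and the regulator Srebf1 rose from 12.8 ± 4.15 to 29.4 ± 4.48 FPKM (log2FC 1.24). The call of Acly was lost under either scaling. Scd1, the main hepatic stearoyl-CoA desaturase, was at 522, 1041, 455, 826 and 1487 FPKM in NDKO and 56.5, 107, 41.9, 40.7 and 109 FPKM in HFKO (log2FC -3.61, SE 0.34, FDR 1.33e-08). The elongase Elovl3 fell from 141 ± 50.2 to 6.17 ± 1.58 FPKM (log2FC -4.46), Acacb fell from 11.8 ± 1.84 to 3.69 ± 0.734 FPKM (log2FC -1.66) and malic enzyme Me1 fell from 27.6 ± 4.27 to 12.5 ± 5.25 FPKM (log2FC -1.20). Scd2, the form of fetal liver and of other tissues, rose from 1.01 ± 0.251 to 6.17 ± 1.51 FPKM (log2FC 2.49). Diacylglycerol acyltransferase Dgat2 was 168 ± 22.8 and 211 ± 15.3 FPKM (log2FC 0.33).

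Of 26 tested genes of cholesterol synthesis and uptake 22 were higher DEGs and 1 lower, with a relative median of 1.16 (17 and 4 under median of ratios, 20 and 2 under quantile normalization). Without overlap, 22 of the 26 lay higher and 1 lower on CDAHFD, against 54.0% and 5.32% of all members. Sqle, squalene epoxidase, was at 0.865, 2.02, 0.608, 1.14 and 0.838 FPKM in NDKO and 12.6, 9.94, 11.6, 20.5 and 7.97 FPKM in HFKO (log2FC 3.43, SE 0.30, FDR 6.00e-09), and Idi1, isopentenyl diphosphate isomerase, at 1.08, 1.96, 1.07, 1.36 and 0.734 FPKM in NDKO and 12.3, 8.57, 10.2, 22.6 and 5.6 FPKM in HFKO. Both were above the highest NDKO library in every HFKO library. Hmgcs1, an early step, rose from 19.6 ± 6.66 to 98.6 ± 47.8 FPKM (log2FC 2.27). The regulators Srebf2 (log2FC 1.499) and Insig1 (1.70) rose. Tm7sf2, a sterol reductase, fell from 22.1 ± 5.83 to 11.6 ± 2.68 FPKM (log2FC -0.92). Genes of this pathway are known targets of SREBP2, which binds sterol regulatory elements beside NF-Y at CCAAT boxes.

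The 200 bases before the start of the 4 higher DEGs of this list with the largest log2FC among those with a RefSeq promoter window are printed because they carry these boxes. Genes of a chromosome that is not reported here were left out of this choice. They are on GRCm38.p6, read 5′ to 3′ along the gene, with CCAAT (or ATTGG, the same letters on the other strand) and TCACNCCAC in capitals.
Idi1: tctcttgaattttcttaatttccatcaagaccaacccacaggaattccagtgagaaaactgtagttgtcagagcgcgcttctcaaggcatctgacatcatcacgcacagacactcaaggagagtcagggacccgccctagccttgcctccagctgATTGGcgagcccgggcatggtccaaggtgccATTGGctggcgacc
Mvd: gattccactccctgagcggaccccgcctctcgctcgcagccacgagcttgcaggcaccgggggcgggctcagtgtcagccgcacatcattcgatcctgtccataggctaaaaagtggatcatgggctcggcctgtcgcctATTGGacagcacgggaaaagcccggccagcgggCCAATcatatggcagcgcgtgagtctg
Msmo1: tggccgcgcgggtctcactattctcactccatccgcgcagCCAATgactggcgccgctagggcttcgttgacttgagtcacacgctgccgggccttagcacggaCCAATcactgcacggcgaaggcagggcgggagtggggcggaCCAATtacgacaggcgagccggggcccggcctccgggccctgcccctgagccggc
Hmgcs1: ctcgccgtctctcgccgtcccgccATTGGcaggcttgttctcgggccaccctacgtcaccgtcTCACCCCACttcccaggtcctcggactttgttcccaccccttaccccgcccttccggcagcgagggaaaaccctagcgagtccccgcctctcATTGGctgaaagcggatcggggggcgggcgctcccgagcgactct
The stretches are chr13:8885406-8885605 on the plus strand for Idi1, chr8:122443423-122443622 on the minus strand for Mvd, chr8:64733579-64733778 on the minus strand for Msmo1 and chr13:119690151-119690350 on the plus strand for Hmgcs1. Windows reaching from 250 bases before to 50 after the start held CCAAT, on either strand, in 16 of the 18 tested cholesterol genes with a window, against 41.1% of all 27025 genes with one. TCACNCCAC was in 1 of 18, that of Hmgcs1, against 1.44%. A match of letters is a description and not a bound site. The window of Sqle was not analysed here.

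The list of mitochondrial beta oxidation had 3 higher and 9 lower DEGs of 28 (relative median -0.82, 0 and 23 under median of ratios, 1 and 9 under quantile normalization). Acsl1, which activates long-chain fatty acids, was at 273, 393, 370.4, 329 and 304 FPKM in NDKO and 96.9, 99, 101, 90.4 and 98.4 FPKM in HFKO. Cpt2 fell from 104 ± 11.7 to 64.2 ± 3.23 FPKM (log2FC -0.69), while Cpt1a, the gate of the mitochondrion, was 302 ± 39.8 and 219 ± 21.2 FPKM (log2FC -0.46). The receptor Ppara, which drives these genes, fell from 57.4 ± 5.63 to 36.8 ± 6.08 FPKM (log2FC -0.65).

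In peroxisomal and omega oxidation 3 of 26 were higher and 14 lower (relative median -1.09). Cyp4a10, an omega hydroxylase and classic PPARα target, was at 2060.4, 1831, 2372, 2292 and 1110.1 FPKM in NDKO and 346, 358, 464, 308 and 337 FPKM in HFKO, and Cyp4a14 at 1580.3, 2481, 2406, 2245 and 741 FPKM in NDKO and 521, 326, 678, 855 and 369 FPKM in HFKO. For Cyp4a14 NDKO5 lay below HFKO4, so the diets overlapped, whereas Cyp4a10 was lower in every HFKO library. Ehhadh, a peroxisomal bifunctional enzyme, fell from 975 ± 411 to 346 ± 60.7 FPKM (log2FC -1.40). Pdk4 and Fgf21, further PPARα targets, were 7.45 ± 6.17 and 7.47 ± 0.961 FPKM (log2FC 0.38) and 19.8 ± 11.9 and 22.8 ± 5.53 FPKM (log2FC 0.43), respectively.

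Fatty acid uptake genes had 5 higher and 2 lower DEGs of 14 (relative median -0.45, 5 and 7 under median of ratios, 5 and 3 under quantile normalization). Cd36, a fatty acid translocase that is also a TSP-1 receptor, was at 10.4, 21.3, 11.9, 9.29 and 6.93 FPKM in NDKO and 85.3, 86.6, 90.9, 75 and 93.4 FPKM in HFKO, and every HFKO library exceeded every NDKO library. Pparg, the adipogenic receptor, rose from 2.18 ± 0.718 to 10.1 ± 1.84 FPKM (log2FC 2.20), and Fabp4 rose from 7.78 ± 1.88 to 27.3 ± 6.41 FPKM (log2FC 1.81). The hepatocyte transporters Slc27a2 and Slc27a5 fell, by 1.13 and 1.16 on the log2 scale.

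The list of bile acid synthesis held 4 higher and 5 lower DEGs of 17 (1 and 8 under median of ratios, 3 and 5 under quantile normalization). Cyp7a1, the rate-limiting enzyme of the classical route, was 39 ± 19.3 and 29 ± 17 FPKM (log2FC -0.45). Cyp8b1, which sets the cholic acid share, fell from 713 ± 53.3 to 168 ± 26.6 FPKM (log2FC -2.09). Cyp7b1 of the alternative route was at 93, 75.3, 101, 147 and 82.9 FPKM in NDKO and 11.1, 18.3, 8.57, 9.32 and 9.93 FPKM in HFKO (log2FC -3.13, SE 0.20, FDR 8.44e-11), with every HFKO library below every NDKO library. Nr0b2, the repressor SHP, rose from 19.7 ± 10.6 to 47.7 ± 14 FPKM (log2FC 1.44), a call lost under median of ratios. Among 19 transporters, 4 of them above 0.5 FPKM in HFKO alone, 6 were higher and 3 lower (4 and 9 under median of ratios, 4 and 5 under quantile normalization). The uptake carriers Slc10a1 and Slco1a1 fell by 0.76 and 2.70, and the basolateral exporters Abcc4 and Slc51b rose by 2.19 and 3.11 on the log2 scale, from below 0.5 FPKM. The canalicular export pump Abcb11 was 67.3 ± 7.13 and 95.9 ± 25.9 FPKM (log2FC 0.47).

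Cytochrome P450 genes of families 1 to 3 had 9 higher and 15 lower DEGs of 34 (relative median -0.82), with 3 above 0.5 FPKM in HFKO alone and 1 in NDKO alone. Cyp2e1, the most abundant, fell from 4681 ± 272 to 2753 ± 390.0 FPKM (log2FC -0.78), Cyp2c29 fell from 87.8 ± 27.8 to 20 ± 9.95 FPKM (log2FC -2.24) and the electron donor Por fell from 225 ± 51 to 111 ± 22.6 FPKM (log2FC -1.003). Quantile normalization took away the call of Cyp2e1 (log2FC -0.30). Cyp3a11 rose from 267 ± 82.5 to 895 ± 305 FPKM (log2FC 1.74) and Cyp2a5 rose from 58.3 ± 17 to 199 ± 70.5 FPKM (log2FC 1.76). Of 22 glutathione S-transferases 13 were higher and 2 lower (relative median 0.33, 8 and 6 under median of ratios, 10 and 1 under quantile normalization). Gstm1 was at 216, 244, 215, 183 and 263 FPKM in NDKO and 864, 816, 851, 1108 and 661 FPKM in HFKO, whereas Gstp1, a male-abundant form, fell from 1472 ± 212 to 767 ± 92 FPKM (log2FC -0.94), a call lost under quantile normalization (log2FC -0.22).

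NRF2 and oxidative stress genes had 22 higher and 2 lower DEGs of 33 (relative median 0.43). Nqo1, a quinone reductase, was at 1.84, 1.45, 1.58, 1.09 and 3.22 FPKM in NDKO and 8.55, 10.9, 9.67, 9.9 and 9.97 FPKM in HFKO. The heme oxygenase Hmox1 rose from 14.5 ± 1.14 to 49.1 ± 15.4 FPKM (log2FC 1.70), Srxn1 rose from 18 ± 2.3 to 58.2 ± 6.64 FPKM (log2FC 1.69) and the pentose phosphate gate G6pdx rose from 2.04 ± 0.225 to 8.98 ± 1.68 FPKM (log2FC 2.07). Cbr3 (log2FC 3.56), Gpx3 (2.91) and Osgin1 (2.39) rose, whereas catalase Cat fell from 1020.3 ± 106 to 598 ± 36.7 FPKM (log2FC -0.77), a call lost under quantile normalization (log2FC -0.18). The core of the antioxidant response element, TGACNNNGC, was found in the promoter windows of 10 of 29 of these genes and of 4 of 20 glutathione S-transferases, against 14% of all genes. The ferritin chains Fth1 and Ftl1, which store iron, were among the 10 members with the largest gain in mean FPKM. Fth1 rose from 1183 ± 101 to 2279.6 ± 124 FPKM (log2FC 0.95), a call lost under median of ratios, and Ftl1 was 2267 ± 285 and 2991 ± 229 FPKM (log2FC 0.41).

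In the urea cycle and amino acid list 1 of 47 was a higher and 21 were lower DEGs, with a relative median of -1.02. Hpd, which degrades tyrosine, was at 1783, 1621, 1503, 1806 and 1703 FPKM in NDKO and 549.9, 559.8, 608, 589 and 425 FPKM in HFKO (log2FC -1.63, SE 0.11, FDR 1.04e-10). Cps1, the entry of the urea cycle, fell from 1119 ± 228 to 611 ± 58.5 FPKM (log2FC -0.85), Asl fell from 285 ± 68.9 to 70.8 ± 9.58 FPKM (log2FC -1.99) and Arg1 fell from 1008 ± 201 to 549 ± 42.2 FPKM (log2FC -0.86). The calls of Cps1 (log2FC -0.25) and Arg1 (-0.37) were lost under quantile normalization. The aminotransferases Got1 and Oat fell by 2.27 and 1.80, and Tat and Sds by 1.07 and 1.49 on the log2 scale. Glul, which makes glutamine in pericentral hepatocytes, was 320.2 ± 32 and 425 ± 43.5 FPKM (log2FC 0.41).

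The gluconeogenesis and glycolysis list had 13 higher and 6 lower DEGs of 28 (relative median 0.069, 9 and 8 under median of ratios, 10 and 4 under quantile normalization). G6pc, the last step of glucose release, was at 261, 219.7, 285, 388 and 204 FPKM in NDKO and 53.2, 91, 86.9, 29.3 and 80.4 FPKM in HFKO. Pck1 fell from 1607 ± 63.4 to 801 ± 172 FPKM (log2FC -1.03) and Fbp1 fell from 749 ± 32.8 to 367 ± 29.6 FPKM (log2FC -1.03), and the call of Pck1 was lost under quantile normalization (log2FC -0.27). Pkm, the pyruvate kinase of most other tissues, was at 10.8, 9.26, 9.49, 8.76 and 8.77 FPKM in NDKO and 65.6, 77.8, 87.4, 49.1 and 107 FPKM in HFKO, and the hexokinases Hk1, Hk2 and Hk3 rose by 1.84, 2.34 and 2.27 on the log2 scale. Gapdh was 434 ± 30.3 and 441 ± 31.3 FPKM (log2FC 0.023).

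Of 33 plasma protein genes 8 were higher and 7 lower DEGs (3 and 16 under median of ratios, 8 and 5 under quantile normalization). Alb was at 28492, 29646, 23062, 26235 and 31971 FPKM in NDKO and 32765, 29337, 27449, 34843 and 24233 FPKM in HFKO, overlapping between the diets (log2FC 0.089, FDR 0.582). Under median of ratios the log2FC of Alb was -0.45, short of a call. Haptoglobin Hp rose from 2177 ± 221 to 3423 ± 458 FPKM (log2FC 0.65) and hemopexin Hpx rose from 2452 ± 447 to 3914 ± 425 FPKM (log2FC 0.69), calls that were lost under median of ratios. Serpina3k fell from 4949 ± 580.2 to 979.5 ± 197 FPKM (log2FC -2.35) and Serpina1e fell from 3689 ± 696 to 489.8 ± 395 FPKM (log2FC -3.39). Lcn2, lipocalin-2, was at 3.22, 1.22, 1.46, 3.32 and 1.23 FPKM in NDKO and 74.2, 126, 105, 36.4 and 94 FPKM in HFKO (log2FC 5.34, SE 0.37, FDR 2.24e-10), and Orm2 rose from 13.9 ± 11.4 to 122 ± 49.2 FPKM (log2FC 3.44). Hepcidin (Hamp), which limits iron uptake, fell from 1727 ± 595 to 603 ± 139 FPKM (log2FC -1.48). Complement and coagulation genes had 7 higher and 6 lower DEGs of 38 (4 and 24 under median of ratios, 4 and 5 under quantile normalization). The macrophage-made C1qa, C1qb and C1qc rose by 1.25, 1.66 and 1.38 on the log2 scale, and the lectin Mbl2 fell from 148 ± 10.9 to 46.3 ± 20.5 FPKM (log2FC -1.80). C3 was 2260.1 ± 259.9 and 2693 ± 242 FPKM (log2FC 0.26). Its log2FC was -0.28 under median of ratios and 0.62, a higher DEG, under quantile normalization.

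Of 28 nuclear receptors and hepatocyte transcription factors 5 were higher and 1 lower (1 and 13 under median of ratios, 2 and 8 under quantile normalization). Hnf4a was at 245, 255, 296, 229.9 and 179.8 FPKM in NDKO and 196, 175, 187, 160.1 and 176 FPKM in HFKO (log2FC -0.42, FDR 0.00227), and Cebpa was 333 ± 87 and 285 ± 25.6 FPKM (log2FC -0.19). Under median of ratios both Hnf4a and Cebpa were lower DEGs. Among factors of the early response, 18 of 22 AP-1, Klf and related genes were higher DEGs and 0 lower (relative median 0.98), 3 of them above 0.5 FPKM in HFKO alone. Atf3 was at 0.537, 0.421, 0.674, 0.473 and 0.224 FPKM in NDKO and 16.2, 23.8, 23.8, 14.6 and 25 FPKM in HFKO. Fos (log2FC 3.49), Egr1 (2.66), Klf6 (2.66) and Jun (2.19) rose, and Myc rose from 2.88 ± 0.742 to 7.84 ± 1.24 FPKM (log2FC 1.44).

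In the ATF4 and unfolded protein list 7 of 25 were higher and 1 lower (relative median -0.072). Asns, asparagine synthetase, rose from 0.955 ± 0.577 to 8.91 ± 2.16 FPKM (log2FC 3.21) and Trib3 rose from 5.78 ± 0.346 to 16 ± 3.88 FPKM (log2FC 1.42), while the chaperone Hspa5 was 189.7 ± 52.1 and 185 ± 22.2 FPKM (log2FC 0.0031) and Atf5 fell from 347 ± 65.3 to 211 ± 37.4 FPKM (log2FC -0.71). Among 17 heat shock chaperones 2 were higher and 3 lower (2 and 10 under median of ratios, 1 and 3 under quantile normalization). Hspa8 fell from 371 ± 104 to 226 ± 35.4 FPKM (log2FC -0.67), a call lost without HFKO4 or NDKO4 and under quantile normalization (log2FC -0.56), and Cryab rose from 1.99 ± 0.314 to 7.53 ± 0.685 FPKM (log2FC 1.88).

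Of 35 tested genes of DNA replication and cell division 32 were higher DEGs and 1 lower (relative median 1.51), and 14 of them reached 0.5 FPKM in HFKO alone. Ccnd1, cyclin D1, was at 4.73, 2.59, 4.97, 2.92 and 3.35 FPKM in NDKO and 61.5, 54.4, 62, 74.2 and 59.8 FPKM in HFKO (log2FC 4.07, SE 0.19, FDR 2.42e-12). Mki67, the Ki-67 antigen, was at 0.13, 0.114, 0.122, 0.217 and 0.29 FPKM in NDKO and 2.11, 2.55, 2.02, 1.64 and 5.05 FPKM in HFKO, and Cdc20, the activator of anaphase, rose from 0.415 ± 0.429 to 7.32 ± 3.57 FPKM (log2FC 4.08). The replication helicase subunits Mcm5 and Mcm6 rose by 2.75 and 2.72 on the log2 scale. E2f8, an atypical E2F repressor of polyploid hepatocytes, fell from 3.86 ± 1.34 to 1.23 ± 0.404 FPKM (log2FC -1.55). p53 targets and CDK inhibitors had 17 higher and 1 lower DEGs of 20 (relative median 0.84), among them Phlda3 (log2FC 3.70) and Gdf15 (3.25). Cdkn1a, p21, was 8.48 ± 3.96 and 13.8 ± 4.05 FPKM (log2FC 0.76).

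The same kind of stretch is printed for the 3 higher DEGs of cell division with the largest log2FC among those with a window, with the same chromosome left out. Genes of mitosis are known to be held in check through TTTGAA, the cell cycle homology region, near CCAAT boxes. Capitals mark both, CCAAT on either strand.
Cdc20: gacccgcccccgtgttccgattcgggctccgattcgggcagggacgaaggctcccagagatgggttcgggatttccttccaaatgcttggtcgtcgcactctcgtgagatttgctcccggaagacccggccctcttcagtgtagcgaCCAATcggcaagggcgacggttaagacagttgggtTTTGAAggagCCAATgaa
Ccnb2: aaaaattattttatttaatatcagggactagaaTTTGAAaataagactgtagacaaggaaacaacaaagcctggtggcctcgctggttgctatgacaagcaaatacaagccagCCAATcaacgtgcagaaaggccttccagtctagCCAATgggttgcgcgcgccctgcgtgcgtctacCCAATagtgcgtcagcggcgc
Mki67: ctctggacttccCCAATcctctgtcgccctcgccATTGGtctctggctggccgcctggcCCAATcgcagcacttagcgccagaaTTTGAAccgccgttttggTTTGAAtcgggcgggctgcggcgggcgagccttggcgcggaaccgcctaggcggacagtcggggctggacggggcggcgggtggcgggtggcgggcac
They lie at chr4:118437344-118437543 on the minus strand for Cdc20, chr9:70421555-70421754 on the minus strand for Ccnb2 and chr7:135716380-135716579 on the minus strand for Mki67. Cdc20 and Ccnb2 rose by 4.08 and 3.87 on the log2 scale, and Mki67 by 3.27. TTTGAA was in 13 of 29 cell division genes with a window (20.2% of all genes), CCAAT in 22 (41.1%) and TTTNGCGC, a form of the E2F site, in 7 (1.57%). TGANTCA, the AP-1 site, was in 0 (8.97%).

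Genes of fetal liver and liver tumours gave 14 higher DEGs and 1 lower of 16 (relative median 2.28), 3 of them above 0.5 FPKM in HFKO alone. Spp1, osteopontin, was at 11.9, 10.1, 10.5, 9.83 and 11.7 FPKM in NDKO and 251, 164, 326, 254 and 267 FPKM in HFKO. Ly6d rose from 3.81 ± 1.62 to 66.2 ± 19.7 FPKM (log2FC 4.13), H19 rose from 0.0558 ± 0.0546 to 3.23 ± 0.895 FPKM (log2FC 4.43), and alpha-fetoprotein Afp rose from 0.45 ± 0.176 to 2.17 ± 0.21 FPKM (log2FC 2.09). Tff3, a trefoil peptide, fell from 75.5 ± 57.5 to 2.58 ± 1.6 FPKM (log2FC -4.62).

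Of 17 collagen genes 14 were higher DEGs and 0 lower (relative median 2.13), and 2 were above 0.5 FPKM in HFKO alone. Without overlap, 14 of the 17 lay higher on CDAHFD, against 54.0% of all members. Col1a1 (chromosome 11, 94936224 to 94953042, plus strand), the main fibrillar collagen, was at 1.63, 1.05, 1.26, 1.24 and 0.452 FPKM in NDKO and 54.7, 55.6, 56.9, 32.6 and 76.5 FPKM in HFKO (log2FC 5.54, SE 0.30, FDR 1.01e-11), and Col3a1 rose from 2.76 ± 0.271 to 58.8 ± 14.9 FPKM (log2FC 4.33). Col18a1, the collagen that hepatocytes make, was 231 ± 15.5 and 211 ± 20.5 FPKM (log2FC -0.13). In matrix glycoproteins, crosslinking and remodelling 36 of 38 were higher and 0 lower (relative median 1.99), 13 of them above 0.5 FPKM in HFKO alone. Eln, elastin, was at 1.54, 1.64, 1.51, 1.41 and 1.17 FPKM in NDKO and 26.6, 20.6, 36.7, 25.3 and 37.4 FPKM in HFKO, and Lum, a collagen-binding proteoglycan, rose from 2.86 ± 0.5 to 33.9 ± 5.14 FPKM (log2FC 3.52). The lysyl oxidase-like Loxl1 rose from 1.17 ± 0.207 to 12.5 ± 2.55 FPKM (log2FC 3.31), and the gelatinase Mmp2 rose from 1.21 ± 0.193 to 22.7 ± 6.06 FPKM (log2FC 4.09). Mmp7, matrilysin, rose from 0.162 ± 0.131 to 12.7 ± 5.68 FPKM (log2FC 5.61). Fibronectin Fn1 was 249.7 ± 28.1 and 264 ± 36.7 FPKM (log2FC 0.078).

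In the TGF-β, activin and BMP list, 26 of 30 tested genes were higher and 0 lower DEGs (relative median 0.84, 19 and 0 under median of ratios, 15 and 1 under quantile normalization). Of them, 3 exceeded 0.5 FPKM in HFKO alone. The ligand Tgfb1 was at 6.04, 4.56, 5.6, 3.89 and 4.99 FPKM in NDKO and 16, 16.5, 19.3, 14.4 and 25.4 FPKM in HFKO, and Tgfb2 and Tgfb3 rose by 2.52 and 2.93 on the log2 scale. Of the latent binding proteins, Ltbp2 rose from 0.186 ± 0.046 to 5.34 ± 1.66 FPKM (log2FC 4.21). Among targets, Ctgf, connective tissue growth factor, rose from 2.05 ± 0.669 to 6.9 ± 1.65 FPKM (log2FC 1.74). Of 15 stellate cell and myofibroblast markers 15 were higher DEGs without overlap (relative median 1.87, 12 under median of ratios and 12 under quantile normalization), 2 of them above 0.5 FPKM in HFKO alone. Of all members 54.0% lay higher without overlap. Acta2, smooth muscle actin, rose from 0.3 ± 0.217 to 3.22 ± 0.967 FPKM. The summed level of these markers was 46.2 to 48.1 FPKM in NDKO and 213 to 327 in HFKO. Portal fibroblast and mesothelial markers had 8 higher and 0 lower of 10, with 3 above 0.5 FPKM in HFKO alone, among them Dpt (3.37), while mesothelin (Msln) was 0.771 ± 0.262 and 0.782 ± 0.357 FPKM (log2FC -0.040).

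**Figure D3:**
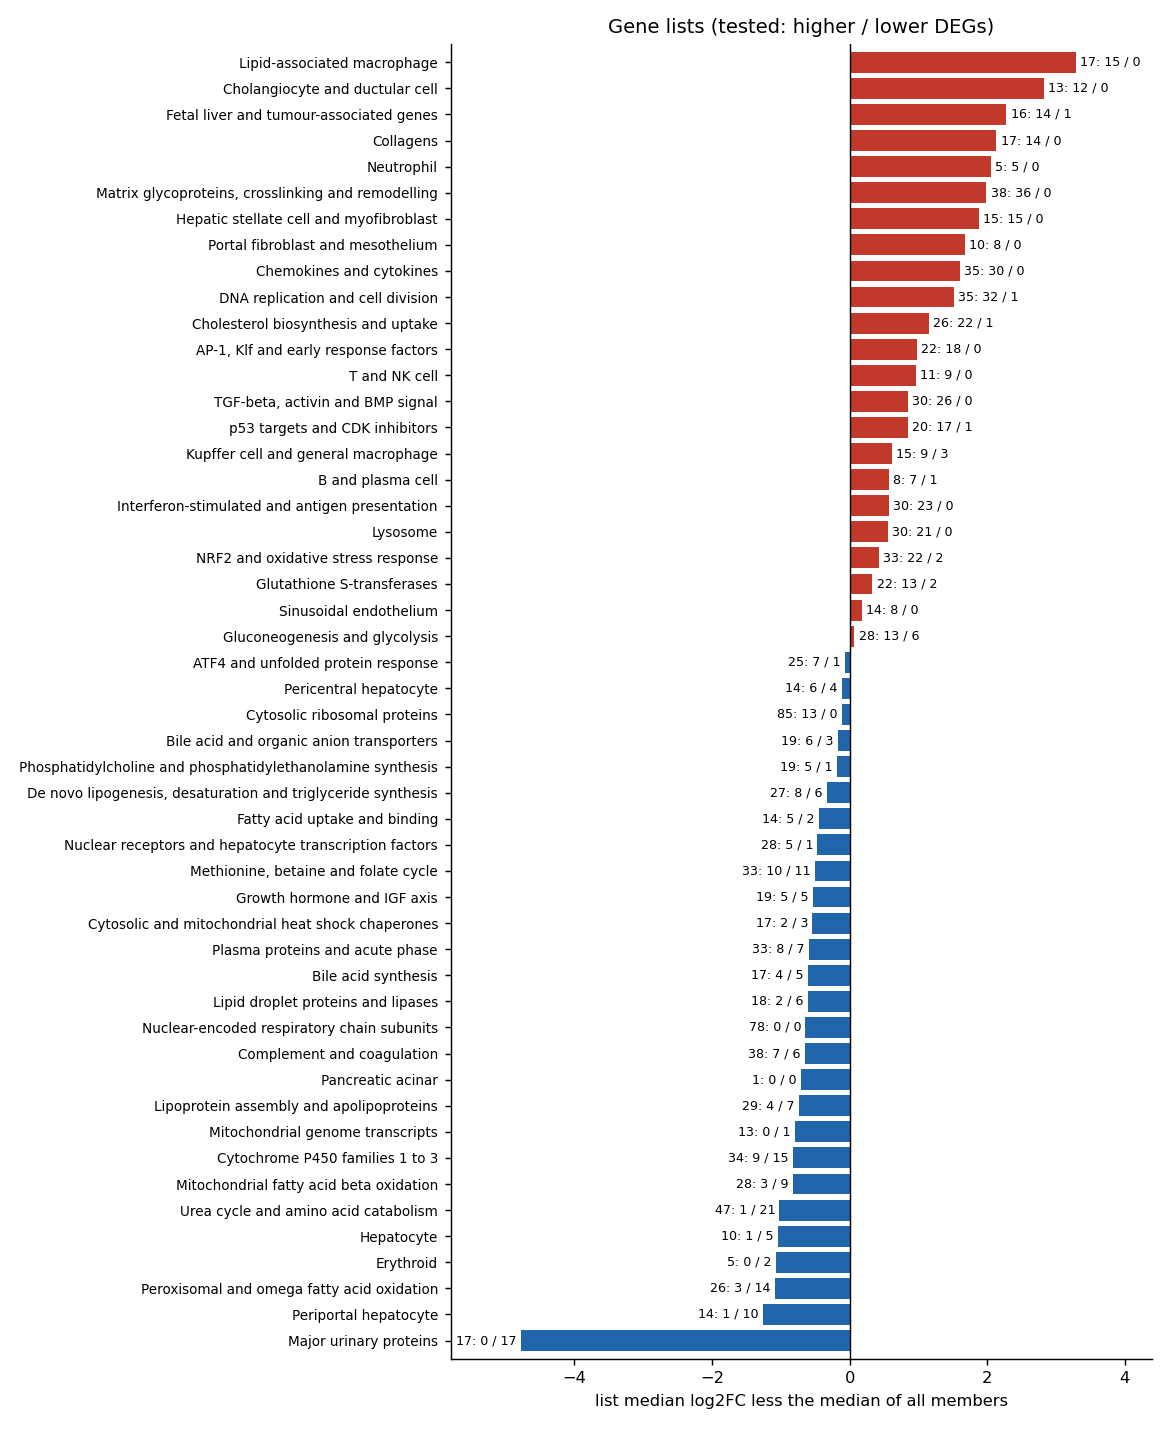
Relative median log2FC (list median less the median of all members, which is 0.48) of the 50 gene lists, as bars from 0, with the number of tested members and of higher and lower DEGs printed beside each. Lipid-associated macrophage markers lie farthest to the right at 3.29 and Mup genes farthest to the left at -4.78.

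Of 17 markers of lipid-associated macrophages 15 were higher DEGs and 0 lower, 2 of them above 0.5 FPKM in HFKO alone, with a relative median of 3.29 and summed levels of 558 to 846 FPKM in NDKO and 1948 to 3142 in HFKO. Trem2, their lipid receptor, was at 0.627, 0.436, 0.27, 0.367 and 0.3 FPKM in NDKO and 12.8, 14.1, 18, 9.32 and 18 FPKM in HFKO. Lgals3, galectin-3, rose from 3.81 ± 0.952 to 103 ± 30 FPKM (log2FC 4.70), Itgax, CD11c, rose from 0.309 ± 0.0804 to 19.2 ± 5.71 FPKM (log2FC 5.53), and Cd63 rose from 4.83 ± 0.87 to 124 ± 23.2 FPKM (log2FC 4.65). In the list of Kupffer cell and general macrophage markers 9 of 15 were higher and 3 lower, with 2 above 0.5 FPKM in HFKO alone and 1 in NDKO alone. The 3 lower DEGs are markers of resident Kupffer cells. Timd4 was at 5.95, 2.57, 4.26, 5.41 and 3.82 FPKM in NDKO and 0.375, 0.412, 0.128, 0.303 and 1.21 FPKM in HFKO, Clec4f fell from 69.3 ± 13.9 to 40.7 ± 10.1 FPKM (log2FC -0.77) and Cd163 fell from 8.38 ± 1.82 to 0.342 ± 0.108 FPKM (log2FC -4.27). Vsig4, another such marker, was 22 ± 4.93 and 21.6 ± 2.88 FPKM (log2FC -0.0058). The general markers Emr1, F4/80, and Csf1r rose by 1.58 and 1.30, and the monocyte markers Ly6c2 and Ccr2 by 2.71 and 3.42 on the log2 scale.

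Lysosomal genes had 21 higher and 0 lower DEGs of 30 (relative median 0.56), with Ctsk (log2FC 4.35), Atp6v0d2 (3.75) and Ctss (3.25) rising and the cathepsin Ctsd going from 147 ± 7.87 to 562 ± 102 FPKM (log2FC 1.91). Chemokines and cytokines had 30 higher and 0 lower of 35 (relative median 1.598), 13 of them above 0.5 FPKM in HFKO alone. Ccl2, which recruits monocytes, was at 0.213, 0.039, 0.141, 0.33 and 0.13 FPKM in NDKO and 3.42, 7.08, 4.84, 4.22 and 4.33 FPKM in HFKO, and its receptor Ccr2 rose from 0.208 ± 0.0892 to 3.15 ± 0.649 FPKM (log2FC 3.42). Cxcl1, which recruits neutrophils, rose from 1.36 ± 0.429 to 14.8 ± 6.82 FPKM (log2FC 3.28), Tnf rose from 0.138 ± 0.051 to 2.11 ± 0.515 FPKM (log2FC 3.22) and the fractalkine receptor Cx3cr1 rose from 0.176 ± 0.0775 to 9.18 ± 2.28 FPKM (log2FC 5.08). Cxcl12 was 48.8 ± 7.73 and 42.4 ± 2.87 FPKM (log2FC -0.19).

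In the interferon and antigen presentation list 23 of 30 were higher and 0 lower (relative median 0.57). Class II genes rose, H2-Ab1 being at 30, 28.7, 29.4, 36 and 19.8 FPKM in NDKO and 107, 138, 148, 106 and 221 FPKM in HFKO, with log2FCs of 2.33 for H2-Aa and 2.17 for Cd74. The interferon target Ifit1 was 4.18 ± 0.529 and 3.62 ± 0.8 FPKM (log2FC -0.22). T and NK markers, 2 of them above 0.5 FPKM in HFKO alone, had 9 higher and 0 lower of 11 (8 and 0 under median of ratios, 2 and 1 under quantile normalization), at summed levels of 4.7 to 7.69 and 12.2 to 31.2 FPKM. B and plasma cell markers had 7 and 1 of 8, which became 0 and 1 under either scaling. Of 11 neutrophil markers 5 were tested and 5 rose, S100a8 from 1.31 ± 0.758 to 10.7 ± 3.4 FPKM.

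Of 13 cholangiocyte markers 12 were higher DEGs and 0 lower, 6 of them above 0.5 FPKM in HFKO alone (relative median 2.83). Epcam was at 0.522, 0.129, 0.813, 0.46 and 0.509 FPKM in NDKO and 10.8, 6.27, 13.8, 10.3 and 11.6 FPKM in HFKO. Krt19 rose from 0.393 ± 0.0528 to 4.19 ± 0.968 FPKM (log2FC 3.09) and Sox9 rose from 2.43 ± 0.577 to 10.7 ± 2.54 FPKM (log2FC 2.09). Sinusoidal endothelial markers had 8 higher and 0 lower of 14 (2 and 0 under median of ratios, 4 and 0 under quantile normalization). The scavenger receptor Stab2 was 11.1 ± 1.6 and 12.7 ± 1.89 FPKM (log2FC 0.19) and Kdr 11.1 ± 1.1 and 11.4 ± 1.7 FPKM (log2FC 0.034), while Cd34, a marker of capillarized sinusoids, rose from 0.475 ± 0.169 to 5.78 ± 0.6 FPKM (log2FC 3.40).

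**Figure D4:**
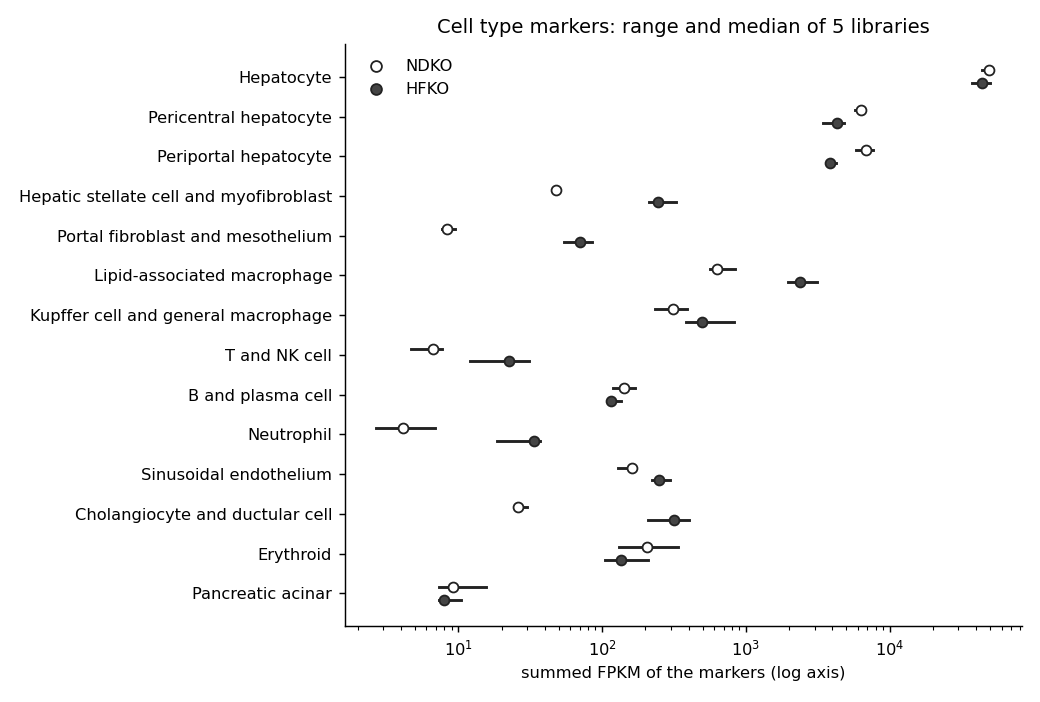
Summed FPKM (log axis) of the 14 cell type marker lists, every member in the table included, as the range (line) and median (dot) of 5 libraries, NDKO open and HFKO filled. The ranges are apart for stellate, portal fibroblast, lipid-associated macrophage, T and NK, neutrophil, endothelial and cholangiocyte markers (HFKO above) and for pericentral and periportal markers (HFKO below). By gene, 6 of 14 pericentral markers were higher and 4 lower DEGs, against 1 and 10 of 14 periportal markers.

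The tissue label was checked against hepatocyte markers, which summed to 43516 to 51119 FPKM in NDKO and 37227 to 49773 in HFKO, with none of the 4 defining genes at 0. Of these 10 markers 1 was a higher and 5 were lower DEGs. Periportal markers had 1 higher and 10 lower of 14 (relative median -1.26), Etnppl being 69.2 ± 22.7 FPKM in NDKO and 18.1 ± 4.46 FPKM in HFKO (log2FC -1.89). Pericentral markers had 6 and 4 of 14 (relative median -0.11, 3 and 5 under median of ratios, 5 and 4 under quantile normalization), with Lect2 and Rhbg rising by 1.58 and 1.36 and Oat falling by 1.80. Erythroid genes, which report blood left in the tissue, had 0 higher and 2 lower of 5, at summed levels of 131 to 339 and 104 to 207 FPKM. Of 10 pancreatic acinar genes 1 was tested, Cela1, 9.7 ± 3.24 and 8 ± 1.32 FPKM (log2FC -0.23), and 1 of 4 defining genes was at 0 in all 10 libraries. No defining gene of the other cell type lists was at 0 in all 10. The part of these cell types in the changes of the other lists was not tested.

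None of 78 nuclear-encoded respiratory chain subunits was a DEG (relative median -0.64), whereas 63 were lower under median of ratios scaling and 6 under quantile normalization. Of 13 protein-coding transcripts of the mitochondrial genome 1 was lower (relative median -0.80, 11 under median of ratios, 3 under quantile normalization). Cytosolic ribosomal proteins had 13 higher and 0 lower of 85 (relative median -0.11), against 0 and 1 under median of ratios and 14 and 2 under quantile normalization. Of the noncoding classes, 46 of 181 lincRNAs were higher DEGs (25.4%) and 27 lower (14.9%), with a median log2FC of 0.13, against 43.5% and 3.52% of protein coding genes. Reads of a gene and of its antisense partner cannot be told apart here, since no use of strand in the counting is stated.

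Mice of one diet were not alike in every gene. The median SD of log2 values over members was 0.19 within NDKO and 0.17 within HFKO. The genes that spread most within HFKO at 5 FPKM or more included Mup7, Serpina1e and Cyp2a4, in which HFKO4 lay at one end. Cyp2a4 was at 0.113, 0.077, 0.031, 0.182 and 0.259 FPKM in NDKO and 15.4, 4.88, 7.61, 49.8 and 10.1 FPKM in HFKO, and Serpina1e at 4079, 3725, 2745, 3331 and 4564 FPKM in NDKO and 405, 1057, 202, 80.6 and 704 FPKM in HFKO. HFKO4 was lowest in Mup7 and Serpina1e and highest in Cyp2a4. In NDKO the acute phase genes Saa1 and Saa2 spread most, Saa1 being at 166, 33.2, 253, 1216 and 50.4 FPKM in NDKO and 172, 279, 161, 69.5 and 237 FPKM in HFKO, with NDKO4 far above the others. Marco, a scavenger receptor of Kupffer cells, was at 11.3, 2.4, 3.34, 5.01 and 2.79 FPKM in NDKO and 3.17, 5.96, 3.22, 4.72 and 30 FPKM in HFKO, with HFKO5 highest and NDKO1 next.

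The diet response of libraries labelled TSP-1 null was tested against that of WT as an interaction. It passed for 108 members (0.809%), 55 with a larger and 53 with a smaller log2FC than in WT, and 2105 had an unadjusted p under 0.05. Thbs1 was among those with a smaller log2FC, rising by 1.36 here and by 4.03 in WT (interaction -2.66, FDR 0.00205). The inducible heat shock genes Hspa1a and Hspa1b, near-identical copies, had interactions of 2.99 and 3.27. Hspa1b was at 7.76, 6.67, 11.8, 8.39 and 2.1 FPKM in NDKO and 7.4, 9.24, 9.58, 7.33 and 11.4 FPKM in HFKO, against 60 ± 24.9 FPKM on the control diet and 8.54 ± 3.86 FPKM on CDAHFD in WT. Mt2, a metallothionein, was at 327, 39.7, 44.8, 125 and 205 FPKM in NDKO and 57.5, 88.3, 57, 58.1 and 80.5 FPKM in HFKO, with NDKO1, NDKO4 and NDKO5 above every HFKO library, and its WT means were 14.5 ± 6.02 FPKM on the control diet and 67.6 ± 31.5 FPKM on CDAHFD (interaction -2.93, FDR 0.0461). Of other list members, Cdkn1a (-2.06), Got1 (-1.77), Gsta2 (-1.59), Asl (-1.28), Trem2 (-1.28) and Oat (-1.10) had negative and Fabp1 (1.17) positive interactions. The count was 48 without HFKO1 and 193 without NDKO2.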

How the data were processed

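Poly(A) RNA of 20 mouse livers was sequenced as paired reads. The authors aligned the reads with STAR 2.5.2 and counted them with featureCounts of Subread 1.5.1, per the labels, and deposited gene values as FPKM without further normalization between libraries. The labels' processing notes name the build GRCh38 although the samples are mouse, and the gene coordinates in the table are those of GRCm38. Since FPKM values were whole multiples of the value of 1 fragment, fragments per gene and library totals were recovered from them and the gene lengths, with a tolerance of 0.1 fragment. Such totals cover fragments assigned to genes. Within NDKO and within HFKO no 2 libraries agreed within sampling noise, and other pairs were not compared.

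The 13342 members were fitted together in limma 3.58.1 (R 4.3.3) on log2(FPKM + 0.1), with a mean for each of 4 groups of 5 libraries and eBayes with trend, as two-sided tests with Benjamini-Hochberg FDR. The fit was tested on simulated data in which few genes changed, as many up as down. Those data hold no shift of scale between the diets and cannot tell which scaling is right. The interaction was the diet difference in libraries labelled TSP-1 null less that in WT. Single values were compared by exact permutation tests. Each library is from a separate mouse, per the sample titles and the study's description. Same-numbered NDKO and HFKO libraries did not deviate together, with correlations between -0.0621 and 0.0269, and were not treated as pairs. Alternatives were the pseudocount, the filter, the scaling between libraries, the samples fitted, the variance prior, the fold limit, a block by number, and each library left out.

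The members and the 50 gene lists were chosen with earlier results of these data known. Named genes were Thbs1, the 10 largest rises and falls without overlap, the 10 largest gains and losses of FPKM, defining genes of a list, up to 4 DEGs of a list in each direction, the 5 largest interactions of each sign and the 5 genes of widest spread within each diet. Of these, some are not printed, and certain genes are not reported here. Cela1, Col18a1, Cxcl12, Cyp2a5, Fgf21, Fn1, Hk1, Insig1, Mcm5, Mcm6, Osgin1, Pdk4, Por and Tgfb2 fall outside the rule and were chosen after their values were seen, as were the letter motifs, of which others were looked at and are not given. Promoter windows are from RefSeq (GRCm38.p6). A symbol pair that named 1 gene was counted once.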

Additional observations from a re-analysis of the deposited data

Results flagged for a closer look

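In 34 of 452 combinations of a named gene and a diet group, 1 library stood apart from the other 4 by Dixon's test at the 95% level, where chance flags about 1 in 20 groups. Some genes were named for their wide spread within a diet, and that rate does not hold for them. HFKO1 stood apart with 387 FPKM for Gapdh and 0.057 FPKM for Moxd1, which had at most 4 fragments in any HFKO library. HFKO2 stood apart with 58 FPKM for Clec4f and 18.3 FPKM for Cyp7b1. HFKO4 stood apart with 275 FPKM for Atf5, 49.8 FPKM for Cyp2a4, 242 FPKM for Gstm3, 21.9 FPKM for Me1, 24 FPKM for Mmp12, 150.0 FPKM for Por, 4.78 FPKM for S100a8, 5.37 FPKM for Socs2 and 16.2 FPKM for Tm7sf2. HFKO5 stood apart with 242 FPKM for C1qa, 10.5 FPKM for Cbr3, 10.3 FPKM for Cela1, 4.06 FPKM for Hk2, 30 FPKM for Marco, 4.71 FPKM for Mcm5, 7.31 FPKM for Mcm6, 5.05 FPKM for Mki67, 4.4 FPKM for Thbs1, 1.21 FPKM for Timd4 and 64.1 FPKM for Emr1. NDKO2 stood apart with 28.5 FPKM for Insig1. NDKO4 stood apart with 0.233 FPKM for Cyp2b9 and 1216 FPKM for Saa1. NDKO5 stood apart with 0.759 FPKM for Afp, 15.3 FPKM for Cela1, 134 FPKM for Ctsd, 4.5 FPKM for Fabp4, 51.4 FPKM for Hsd3b5, 191 FPKM for Hspa8 and 13.9 FPKM for Srxn1.

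The diet log2FC in libraries labelled TSP-1 null less that in WT passed the interaction test in limma for Asl (-1.28, FDR 0.0231), Cdkn1a (-2.06, FDR 0.0464), Fabp1 (1.17, FDR 0.0231), Got1 (-1.77, FDR 0.0165), Gsta2 (-1.59, FDR 0.00934), Hspa1a (2.99, FDR 0.0287), Hspa1b (3.27, FDR 0.00896), Mt2 (-2.93, FDR 0.0461), Oat (-1.10, FDR 0.0231), Thbs1 (-2.66, FDR 0.00205) and Trem2 (-1.28, FDR 0.0236). The count of such genes changed with the library left out, and the cause was not tested.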

How the results depend on the processing

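The counts of DEGs depended on scaling more than on any other choice. Against 5501 higher and 544 lower, median of ratios scaling gave 2771 and 1909, quantile normalization 2260 and 2070, and dropping the fold limit 8697 and 1080. Under the other pseudocounts, filters, variance priors and sample sets the counts stayed within 1.5 times those given, as did those without 1 library (5308 to 5654 higher, 527 to 557 lower). Interaction genes numbered 108, 54 without a filter, and 48 to 193 without 1 library. Of these, the count was 51 without NDKO1, 55 without NDKO4, 66 without HFKO2 and 58 without HFKO4. The cause of these shifts was not tested. The replicate block gave 5499 higher and 548 lower DEGs and 89 interaction genes. The numbers do not pair the libraries. The log2FC of Thbs1 stayed positive and called in every alternative. Of 225 other genes named, 7 lost their call under median of ratios and 12 under quantile normalization. The 12 were Acly, Apoa5, Apoc3, Arg1, Cat, Chka, Cps1, Cyp2e1, Gstp1, Hspa1a, Hspa8 and Pck1. Those lost under median of ratios were Acly, Chka, Fth1, Hp, Hpx, Mat2a and Nr0b2, and 11 genes without a call became lower DEGs there, among them Hnf4a (-0.95), Cebpa (-0.72) and Cpt1a (-0.999). Another 19 genes did not keep the sign of their log2FC under median of ratios, Alb, Apob and C3 among them. Under quantile normalization 7 did not keep it. No gene that lost its sign was a DEG on either scale. Without NDKO4 the log2FC of Igf1 was -0.55 and that of Chka 0.46, without NDKO2 that of Chpt1 was -0.53, and without HFKO4 that of Mttp was -0.58 and that of Hspa8 -0.58. A gene of 1 kb below 0.192 FPKM has at most 3 fragments in the shallowest of the 10 libraries, which limits what the low genes can show.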
